A study of Mus musculus with 6 samples.

Results

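Genes that mark pyramidal neurons of hippocampal field CA1 were followed in hippocampi of miR-17-92 knockout mice, as the labels call them, and of wildtype mice. The 9 genes are Wfs1, Fibcd1, Pou3f1, Mpped1, Spink8, Nov, Dkk3, Gpr161 and Man1a, listed as CA1 markers and found by symbol among the 37620 genes of each count table, where Nov carries its present symbol Ccn3. The rule used no measured value, but the genes were chosen with earlier results of these data known. Its stated purpose was a check of how evenly the subfields were dissected. The 3 knockout and the 3 wildtype animals were C57BL/6 mice aged 13 weeks, each from a different litter. Each gave 1 RNA sequencing library of dissected hippocampus, and reads in genes came to between 26439693 and 57246827 per library. The labels do not say which part of the locus was removed or in which cells, nor how the tissue of an animal was cut.

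CA1 is the output field of the hippocampal circuit, where pyramidal neurons receive input from CA3 and send axons to the subiculum and cortex. The dentate gyrus, CA3, CA2 and CA1 each hold excitatory neurons with their own marker genes, so the balance of such markers in bulk RNA moves with the part of each field that a dissection takes. The marker genes have unrelated functions. Dkk3 encodes a secreted glycoprotein of the Dickkopf family, Ccn3 a secreted matricellular protein of the CCN family, and Spink8 a Kazal-type serine protease inhibitor. Wfs1 encodes wolframin, a membrane protein of the endoplasmic reticulum, Fibcd1 a membrane receptor with a fibrinogen-like domain, and Gpr161 an orphan receptor of the primary cilium that restrains Hedgehog signalling. Mpped1 encodes a protein with a metallophosphoesterase domain, Man1a a Golgi mannosidase that trims N-glycans, and Pou3f1 a POU-domain transcription factor. In counts from whole hippocampus, fewer cells of a type and less RNA per cell cannot be told apart, and other cells may also express these genes.

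MicroRNAs pair with target messages mainly through their seed, bases 2 to 8 from the 5′ end. The cluster encodes 6 microRNAs on chromosome 14, whose mature strands are shown because the knockout is directed at them. They come from RefSeq on GRCm38.p6, plus strand, with the seed in capitals.
miR-17-5p (chr14:115043684-115043706): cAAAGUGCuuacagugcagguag
miR-18a-5p (chr14:115043867-115043889): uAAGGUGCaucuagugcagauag
miR-19a-3p (chr14:115044048-115044070): uGUGCAAAucuaugcaaaacuga
miR-20a-5p (chr14:115044183-115044205): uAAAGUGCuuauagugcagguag
miR-19b-3p (chr14:115044358-115044380): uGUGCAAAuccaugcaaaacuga
miR-92a-3p (chr14:115044476-115044496): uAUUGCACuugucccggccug
miR-17-5p and miR-20a-5p share a seed, as do miR-19a-3p and miR-19b-3p, which leaves 4 distinct seeds.

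A 7-base match to a cluster seed was present in the longest annotated 3′ UTR of 7 of the 9 CA1 markers. The sites searched on the transcript strand were GCACTTT for miR-17-5p and miR-20a-5p, GCACCTT for miR-18a-5p, TTTGCAC for miR-19a-3p and miR-19b-3p, and GTGCAAT for miR-92a-3p. The GCACTTT and TTTGCAC sites can overlap through their shared GCAC. Each of the 7 genes held 1 site, printed 5′ to 3′ with 8 bases on either side, from GENCODE M21 transcripts on GRCm38 and with the match in capitals.
Ccn3 for miR-92a-3p (chr15:54753377-54753399, plus strand): tgcttttaGTGCAATtttgaaaa
Dkk3 for miR-92a-3p (chr7:112118167-112118189, minus strand): tggtagatGTGCAATagaaatgg
Fibcd1 for miR-18a-5p (chr2:31816059-31816081, minus strand): ggcaggcaGCACCTTggtcccct
Gpr161 for miR-18a-5p (chr1:165324378-165324400, plus strand): atagctcaGCACCTTgcttttcc
Mpped1 for miR-19a-3p/miR-19b-3p (chr15:83857497-83857519, plus strand): gactctttTTTGCACtcattccg
Spink8 for miR-18a-5p (chr9:109826534-109826556, plus strand): agagaacaGCACCTTgagaaaaa
Wfs1 for miR-17-5p/miR-20a-5p (chr5:36966524-36966546, minus strand): cacgaagaGCACTTTacagataa
This is 77.8% of the CA1 markers, beside 33.5% of the 14472 tested genes with an annotated 3′ UTR. The marker shares here include Pou3f1, which was not tested, and of the 8 tested markers 7 held a site. The markers' longest 3′ UTRs had a median of 2118 bases, against 1199 bases for those genes. Of the 12373 genes whose 3′ UTR lay within the markers' range of 232 to 5044 bases, 34.6% held a site. That range takes in most of the 14472 genes, so this share is not matched to the markers' longer median. By seed, 3 markers held a miR-18a-5p site (33.3%, beside 9.3% of genes) and 2 a miR-92a-3p site (22.2%, beside 7.6%). Wfs1 alone held a miR-17-5p and miR-20a-5p site and Mpped1 alone a miR-19 site, 11.1% each, beside 14.5% and 13.2% of genes. Man1a and Pou3f1 held none. A match is a stretch of letters and not evidence of binding.

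The cluster's host transcript Mir17hg had few reads in either genotype, with 30, 35 and 37 reads in knockout and 43, 47 and 36 reads in wildtype libraries. By edgeR's quasi-likelihood test the log2 fold was -0.22 (SE 0.28), with an adjusted p of 0.813, and without knockout replicate 3 it was 0.04. These reads do not check the genotype labels, since the labels do not give the deleted part.

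The CA1 markers as a group stood at nearly the same level in both genotypes, and none of them passed the main test. Of the 8 markers tested, 4 had positive and 4 negative log2 folds of knockout over wildtype, with a median of 0.02, beside 0.000 over all 16432 genes tested. With edgeR's quasi-likelihood test at an adjusted p under 0.05, 0 of 8 were called, beside a percent called of 0 over all genes tested (829 were higher and 917 lower at an unadjusted p under 0.05, and DESeq2 called 163). At an unadjusted p under 0.05, 1 of 8 was higher (background 5.05%) and 0 were lower (background 5.58%). That gene was Ccn3, which DESeq2 also called, the only marker it called (background 0.542% higher and 0.72% lower). Limma-voom called 0 of the 8. Across the 8 markers the 95% intervals of the fold reached from 0.71 to 1.37, so larger shifts lay outside every marker's interval. A p that misses the threshold does not show that the levels were equal.

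**Figure D1:**
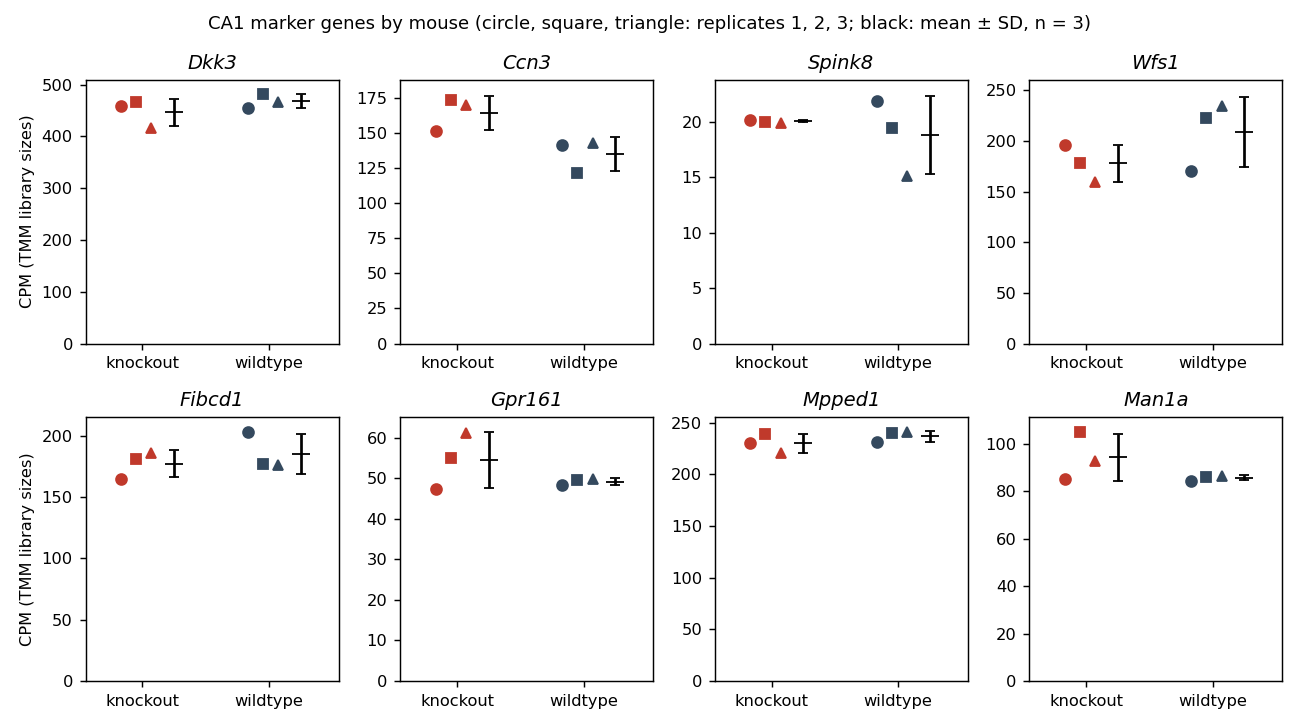
Gene reads scaled by library size (CPM, y axes starting at 0) of the 8 markers with reads, for each of 3 knockout mice on the left and 3 wildtype mice on the right of every panel, with black bars for the mean ± SD. Ccn3 separates the genotypes, at 151 to 173 CPM in knockout and 121 to 143 CPM in wildtype mice, and the other 7 overlap.

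Among the secreted proteins, Dkk3 was the most abundant marker. Its level was 458, 466 and 417 CPM in knockout replicates 1, 2 and 3, against 454, 482 and 466 CPM in wildtype replicates 1, 2 and 3. CPM here are gene reads scaled by library size with TMM factors. Knockout replicate 3 was the lowest library and the genotypes overlapped. The means were 447 ± 26 CPM in knockout and 468 ± 14 CPM in wildtype (SD, n = 3), and the log2 fold was -0.07 (SE 0.05, edgeR adjusted p = 0.671).

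Ccn3 had the log2 fold farthest from 0 of the 8 tested markers when all 6 libraries were used, while without wildtype replicate 1 Wfs1 was farther, at -0.37. Knockout libraries held 151, 173 and 170 CPM and wildtype libraries 141, 121 and 143 CPM. Every knockout library lay above every wildtype library, as for 8.29% of all genes tested, while no marker had every knockout library below every wildtype library (8.34% of all genes). The gap between the groups was narrow, since knockout replicate 1 at 151 CPM and wildtype replicate 3 at 143 CPM were closer to each other than to the far end of their own group. Means were 164 ± 12 CPM in knockout and 135 ± 12 CPM in wildtype (SD, n = 3), a log2 fold of 0.29 (SE 0.08), or 1.22-fold with a 95% interval of 1.09 to 1.37. The unadjusted p of 0.00405 was the 218th smallest of 16432, and the edgeR adjusted p was 0.305, against 0.0203 with DESeq2 and 0.294 with limma-voom. With 1 library left out the log2 fold lay between 0.22 and 0.35, with edgeR adjusted p from 0.257 to 0.779.

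Marker lists of other cell types were set beside these values. All 8 meningeal markers had positive log2 folds (median 0.39), and their summed level was 314 to 427 CPM in knockout and 242 to 283 CPM in wildtype libraries, without overlap and with none at 0. Ptgds made up most of these sums, at 205 to 304 CPM in knockout and 152 to 198 CPM in wildtype. With the genes weighted equally, mean log2 levels relative to the 6-library mean were 0.16, 0.22 and 0.27 in knockout. In wildtype they were -0.31, -0.10 and -0.24. The transporter gene Slc13a4 of that list had a log2 fold of 0.76 and Ptgds, a prostaglandin D synthase, one of 0.62. All 7 astrocyte markers had positive log2 folds (median 0.22), with overlapping sums of 5341 to 5722 CPM in knockout and 4889 to 5528 CPM in wildtype. The gap junction gene Gjb6 had the smallest p of all genes tested, with 58.7, 54.6 and 61.7 CPM in knockout, against 36.6, 40.5 and 40.4 CPM in wildtype (log2 fold 0.58, SE 0.06, edgeR adjusted p = 0.0624). Its adjusted p ran from 3.11e-10 with DESeq2 to 0.362 without knockout replicate 2. Leaving out knockout replicate 3 gave 0.0452, and leaving out wildtype replicate 2 gave 0.0421. The water channel gene Aqp4 had a log2 fold of 0.39 (edgeR adjusted p = 0.261, or 0.0268 without knockout replicate 3).

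The other lists each held log2 folds of both signs, and some leaned in a single direction. Of 8 genes of subiculum or neighbouring cortex 6 were positive (median 0.11), with Lamp5 at 0.15, Nts at 0.43 and Slc17a6 at 0.38, with sums of 230 to 275 CPM in knockout and 219 to 267 CPM in wildtype. Of 6 oligodendrocyte markers 5 were negative (median -0.15), with the myelin genes Mag at -0.26 and Mbp at -0.15. Of 6 microglial markers 4 were negative (median -0.08), with Aif1 at 0.88 and C1qa at -0.17. Of 5 endothelial markers 3 were negative (median -0.01), with Ly6c1 at 0.38 and Cldn5 at -0.32. The 8 interneuron markers had a median of 0.00, with Vip at 0.28 and Slc32a1 at -0.11, and the 4 choroid plexus markers tested one of -0.04, with Kl at 0.29 and Ttr at -1.99. The Ttr fold (SE 0.91, edgeR adjusted p = 0.492) rested on wildtype replicate 1, at 39.0 CPM, and was 0.06 without it. Wildtype replicates 2 and 3 had 4.87 and 2.48 CPM, inside the knockout range of 1.56 to 5.73 CPM. No gene of these lists passed in the main edgeR test. Without a filter beyond 1 read, edgeR's adjusted p was 0.00183 for Gjb6, 0.0116 for Aif1 and 0.0327 for both Aqp4 and Ptgds. In edgeR's robust fit it was 0.0249 for Gjb6 and 0.0438 for Aif1. The other genes named from these lists passed in neither. DESeq2 called 2 of 8 meningeal genes, 2 of 7 astrocyte genes, Aif1 and Ly6c1, all higher in knockout (background 0.542% higher and 0.72% lower). The part of these lists in the Ccn3 difference was not tested.

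Spink8, the least abundant marker with reads by CPM, was even in knockout and uneven in wildtype mice. It had 20.2, 20.0 and 19.9 CPM in knockout, against 21.9, 19.4 and 15.1 CPM in wildtype replicates 1, 2 and 3. Wildtype replicate 3 was the low one, and the groups overlapped. The log2 fold of 0.09 (SE 0.12, edgeR adjusted p = 0.822) became -0.05 without that library.

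Of the membrane proteins, Wfs1 had the most negative log2 fold of the markers and a wide spread. Knockout replicates 1, 2 and 3 had 196, 178 and 160 CPM and wildtype replicates 1, 2 and 3 had 170, 223 and 235 CPM. Wildtype replicate 1 lay inside the knockout range, while wildtype replicates 2 and 3 lay above all knockout libraries. The means were 178 ± 18 CPM in knockout and 209 ± 35 CPM in wildtype (SD, n = 3). The log2 fold was -0.24 (SE 0.12, edgeR adjusted p = 0.528), or 0.85-fold with a 95% interval of 0.71 to 1.02. It was -0.37 without wildtype replicate 1 and -0.15 without wildtype replicate 3.

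Fibcd1 measured 165, 181 and 186 CPM in knockout, against 203, 177 and 176 CPM in wildtype libraries. Wildtype replicate 1, the library with the least Wfs1 of its genotype, had the most Fibcd1 of all 6. The log2 fold of -0.06 (SE 0.07, edgeR adjusted p = 0.775) became 0.01 without that library. Gpr161 stood at 47.4, 55.1 and 61.1 CPM in knockout, against 48.3, 49.6 and 49.7 CPM in wildtype. The knockout values lay on both sides of the wildtype ones, which were close together. Its log2 fold was 0.15 (SE 0.08, edgeR adjusted p = 0.56), and 0.06 without knockout replicate 3.

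Mpped1 had the lowest biological variation of the markers in edgeR's fit. It measured 230, 239 and 221 CPM in knockout, against 231, 240 and 241 CPM in wildtype. The groups overlapped, and the log2 fold of -0.05 (SE 0.04) had a 95% interval of -0.14 to 0.05 (edgeR adjusted p = 0.74). Man1a had 85.3, 105 and 92.9 CPM in knockout and 84.4, 86.2 and 86.6 CPM in wildtype. Knockout replicates 2 and 3 were above the wildtype libraries and knockout replicate 1 was among them, for a log2 fold of 0.14 (SE 0.07, edgeR adjusted p = 0.536). In the annotation the span of Man1a, introns included, overlaps Gm47917 and Gm16998 on the other strand. The strand setting and annotation of the counting are not given, so whether reads of these genes were counted for Man1a is not known.

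The transcription factor Pou3f1 was listed at 0 reads in every library of both genotypes, so it was in no test. A count of 0 allows up to 3 reads, which is 0.0524 to 0.113 CPM at these depths, and covers counting error only. Pou3f1 has 1 exon, and Gm2164 overlaps it on the other strand in GENCODE M21. The annotation release used for counting is not given, and whether it could assign reads to Pou3f1 was not tested. The related Pou3f3, looked up after the 0 was seen, had 64.7, 67.5 and 65.9 CPM in knockout, against 75.7, 75.0 and 71.0 CPM in wildtype libraries. Its groups did not overlap, and the log2 fold was -0.16 (SE 0.05, edgeR adjusted p = 0.322). Every knockout library lay below every wildtype library for 8.34% of all genes tested. Pou3f4, looked up together with Pou3f3, had overlapping groups and a log2 fold of -0.44 (SE 0.19, edgeR adjusted p = 0.452).

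**Figure D2:**
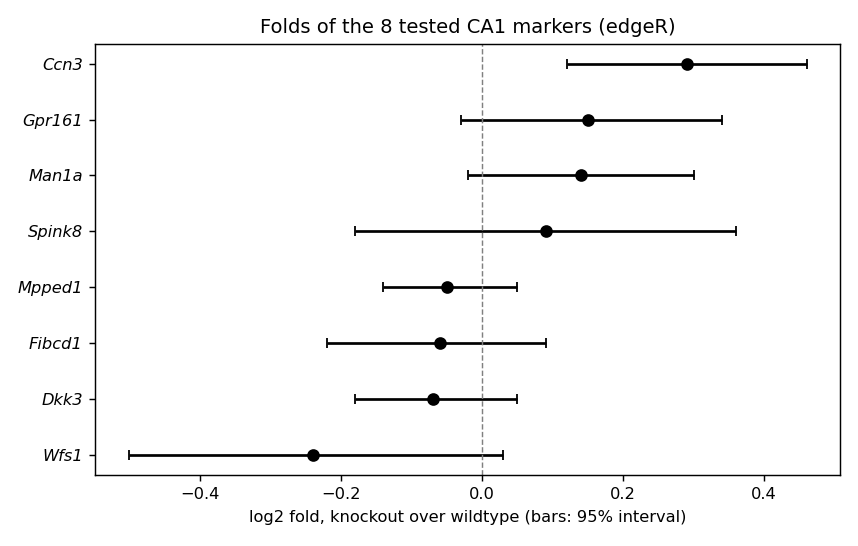
Log2 fold of knockout over wildtype (x axis) for the 8 tested markers, with points for the edgeR estimate and bars for its 95% interval. The interval of Ccn3 runs from 0.12 to 0.46, and those of the other 7 include 0.

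Compared per length, the markers spanned a wide range of levels. In reads scaled by library size and by kilobases of annotated exon (RPKM), Dkk3 led with 133 ± 7.8 RPKM in knockout and 139 ± 4.1 RPKM in wildtype (SD, n = 3). Ccn3 had 57.3 ± 4.1 RPKM in knockout, next after Dkk3, and 47.0 ± 4.2 RPKM in wildtype, below Mpped1 and Wfs1. Mpped1 had 53.5 ± 2.1 RPKM in knockout and 55.2 ± 1.2 RPKM in wildtype, and Wfs1 had 47.0 ± 4.8 RPKM in knockout and 55.3 ± 9.1 RPKM in wildtype. In knockout, Ccn3 and Mpped1 did not differ beyond their SDs, nor did Mpped1 and Wfs1, and in wildtype Wfs1 overlapped with both Mpped1 and Ccn3. Fibcd1 had 37.3 ± 2.4 RPKM in knockout and 39.0 ± 3.3 RPKM in wildtype, and Spink8 had 24.4 ± 0.13 RPKM in knockout and 22.9 ± 4.2 RPKM in wildtype. The levels were lowest for Man1a, with 9.78 ± 1.0 RPKM in knockout and 8.89 ± 0.12 RPKM in wildtype, and Gpr161, with 7.83 ± 0.98 RPKM in knockout and 7.06 ± 0.11 RPKM in wildtype. Among all genes tested with a known length, mean levels per length ran from the 63.1 percentile for Gpr161 to the 99.0 percentile for Dkk3. Exon lengths are those of GENCODE M21 and not of the annotation used for counting.

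Counting error was a small part of the spread between mice for most markers. The coefficient of variation between mice ran from 0.523% (Spink8) to 12.5% (Gpr161) in knockout and from 1.37% (Man1a) to 18.4% (Spink8) in wildtype, while the reads alone would give 0.744% to 3.69%. Spink8 in knockout and Gpr161 and Man1a in wildtype varied less than their reads alone would give. The biological coefficient of variation that edgeR estimated was 4.82% for Mpped1 and 5.28% for Dkk3. It was 10.5% for Wfs1 and 10.8% for Spink8, beside 6.02% and 8.84% for genes of their abundance.

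The markers were not high or low in the same mice. Knockout replicate 3 had the least Wfs1, Dkk3 and Mpped1 of the 6 libraries and the most Gpr161. Knockout replicate 2 had the most Ccn3 and Man1a. The SD over the 6 libraries of a marker's log2 difference from the mean marker level was 0.059 for Mpped1, 0.083 for Dkk3 and 0.085 for Man1a. It was 0.170 for Ccn3, 0.179 for Spink8 and 0.242 for Wfs1. Over 10981 other protein-coding genes with at least 5 CPM on average, the median of that SD was 0.093. The genes closest to the mean marker level over the 6 libraries were Traf2, Suclg1 and Rab11fip2, with SDs of 0.006, 0.008 and 0.010. All 3 were close to constant, at 11.2 to 12.1, 80.4 to 85.3 and 106 to 113 CPM.

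Depth differed between the libraries, and knockout replicate 3 was the deepest. Within the 3 deeper libraries (knockout replicate 3, wildtype replicates 1 and 2) the mean marker level was 0.03 higher in knockout on the log2 scale, and within the 3 shallower ones 0.04 higher. In the deeper set Gpr161 differed by 0.32, Spink8 by -0.05 and Wfs1 by -0.29. In the shallower set Gpr161 differed by 0.04, Spink8 by 0.42 and Wfs1 by -0.33. The deeper set holds 1 knockout library and the shallower set 1 wildtype library, replicate 3 in both cases. Each of these differences therefore rests on 1 mouse on that side, which for Spink8 is its low wildtype library. Folds across genes also differed by base composition. When genes were split into 5 equal bins by GC content, the median log2 fold was -0.08 in the bin with the most GC, which holds Wfs1 (57.8%) and Fibcd1 (59.4%), and 0.06 in the bin with the least. With an offset for GC content the log2 folds were -0.16 for Wfs1, 0.03 for Fibcd1 and 0.25 for Ccn3 (edgeR adjusted p of 0.824, 0.96 and 0.465).

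The sum of the 9 CA1 markers was 1353, 1417 and 1327 CPM in knockout replicates 1, 2 and 3, against 1354, 1397 and 1412 CPM in wildtype replicates 1, 2 and 3. Weighting each tested marker equally, the mean log2 level relative to the 6-library mean was -0.03, 0.07 and 0.01 in knockout and -0.01, -0.01 and -0.02 in wildtype. The wildtype libraries were close together and inside the knockout range. The group means differed by 0.03, with within-genotype SDs of 0.05 in knockout and 0.01 in wildtype.

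The balance of CA1 against the other subfields was then taken within each library as the difference of mean log2 levels, centred over the 6 libraries. Against the dentate granule cell markers it was -0.14, 0.03 and 0.01 in knockout, against -0.02, 0.13 and -0.01 in wildtype replicates 1, 2 and 3. The difference between genotypes was -0.07, with overlapping groups, and -0.01 without knockout replicate 1 or -0.02 without wildtype replicate 2. Against CA3 markers the balance was -0.07, 0.07 and -0.01 in knockout and -0.02, 0.04 and -0.01 in wildtype, a difference of -0.01 with overlapping groups. Against CA2 markers it was 0.00, 0.02 and 0.07 in knockout and -0.06, -0.01 and -0.02 in wildtype. These CA2 groups did not overlap, with a difference of 0.06, but knockout replicate 1 at 0.00 and wildtype replicate 2 at -0.01 nearly met. Against astrocyte markers the groups did not overlap either, with -0.23, -0.05 and -0.01 in knockout, 0.14, 0.04 and 0.11 in wildtype, and a difference of -0.19. Against markers shared by forebrain pyramidal neurons the difference was 0.05, with overlapping groups (-0.10, 0.13 and 0.05 in knockout, -0.07, -0.02 and 0.01 in wildtype). It was -0.09 against markers of subiculum or cortex, 0.15 against oligodendrocyte markers and 0.04 against interneuron markers, each with overlapping groups. Lists were chosen with earlier results known, so these differences are values without a test.

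**Figure D3:**
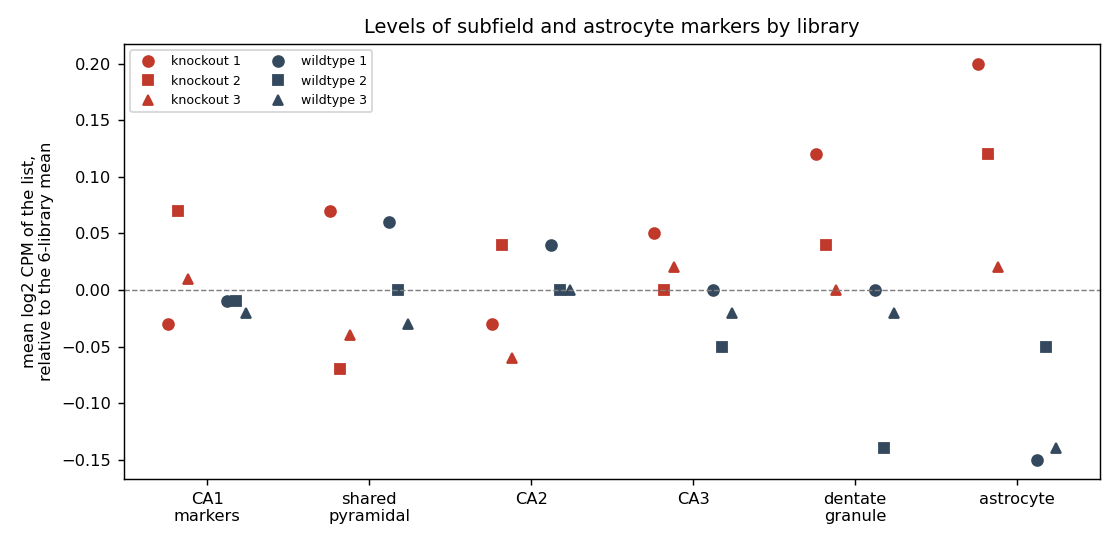
Mean log2 CPM of each marker list relative to its mean over the 6 libraries (y axis), with knockout libraries left of wildtype libraries for each list and 1 symbol per replicate. The CA1 markers stay between -0.03 and 0.07, and the astrocyte markers are above 0 in every knockout and below 0 in every wildtype library.

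No gene of these subfield lists passed in the main edgeR test at an adjusted p under 0.05. At an unadjusted p under 0.05 there were 2 dentate genes higher and 1 lower, 2 CA3 genes higher, 1 CA2 gene higher and 1 lower, and 0 of the shared pyramidal genes (background 5.05% higher and 5.58% lower). DESeq2 called Calb1 alone among them (background 0.542% higher and 0.72% lower). Of 10 dentate granule markers 8 had positive log2 folds (median 0.13), led by Calb1, a calcium-binding protein of granule cells that some CA1 neurons also express. It had 168, 172 and 180 CPM in knockout, against 124, 118 and 136 CPM in wildtype (log2 fold 0.46, SE 0.06, edgeR adjusted p = 0.0624). Over the alternatives that adjusted p ran from 2.81e-09 with DESeq2 to 0.365 without knockout replicate 2, and it was 0.00183 without a filter and 0.0249 in edgeR's robust fit. Plk5 and Dock10 of that list had log2 folds of -0.31 and 0.15. Of 6 CA3 markers 2 were positive (median -0.05), both with an unadjusted p under 0.05, namely Ociad2 at 0.13 and Coch at 0.42. Of 7 CA2 markers 3 were positive (median -0.08), with Amigo2 at 0.20, the neurotrophin Ntf3 at -0.28 and Rgs14 at -0.11. Of 7 shared pyramidal markers 3 were positive (median -0.06), with Nrgn at -0.11, Neurod2 at -0.10 and Camk2a at 0.12. The summed dentate markers were 904, 885 and 853 CPM in knockout replicates 1, 2 and 3, against 799, 776 and 803 CPM in wildtype replicates 1, 2 and 3. These sums did not overlap, but they hold Calb1, whose own CPM separated the groups, and sums without it were not taken. The mean log2 levels of the dentate list, which weight its genes equally, ran from 0.00 to 0.12 in knockout and from -0.14 to 0.00 in wildtype, so that the groups met at 0.00. The summed CA3 markers were 1044 to 1121 CPM in knockout and 1029 to 1178 CPM in wildtype, and the summed CA2 markers 258 to 274 CPM in knockout and 267 to 282 CPM in wildtype.

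Genes reported to be stronger in ventral than in dorsal CA1 were mostly positive, 5 of 6, with a median log2 fold of 0.12. Their summed levels overlapped, at 191, 200 and 243 CPM in knockout against 206, 199 and 172 CPM in wildtype replicates 1, 2 and 3. Mean log2 levels relative to the 6-library mean were -0.04, -0.09 and 0.26 in knockout and 0.09, -0.01 and -0.21 in wildtype. By this level, knockout replicates 1 and 2 lay below wildtype replicates 1 and 2. Grp, which encodes gastrin-releasing peptide, had 15.7, 17.6 and 17.7 CPM in knockout, against 15.1, 13.7 and 14.2 CPM in wildtype. The groups did not overlap, and its log2 fold was 0.25 (SE 0.08, edgeR adjusted p = 0.347). The transcription factor Etv1 had 55.9, 65.2 and 68.8 CPM in knockout, against 53.4, 54.2 and 54.8 CPM in wildtype (log2 fold 0.23, SE 0.07, edgeR adjusted p = 0.353), again without overlap. Separation with knockout higher was seen for 2 of the 6 genes and for 8.29% of all genes tested. The lowest log2 fold of the list was -0.17. Etv1 is also expressed in cortex, and Dcn of this list is also a meningeal gene. Dcn had a log2 fold of 0.13 (SE 0.14), or -0.08 without knockout replicate 3, where it was highest at 63.8 CPM. None of the 6 was called by DESeq2. Against this list the CA1 balance differed by -0.05 between genotypes, with overlapping groups.

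**Figure D4:**
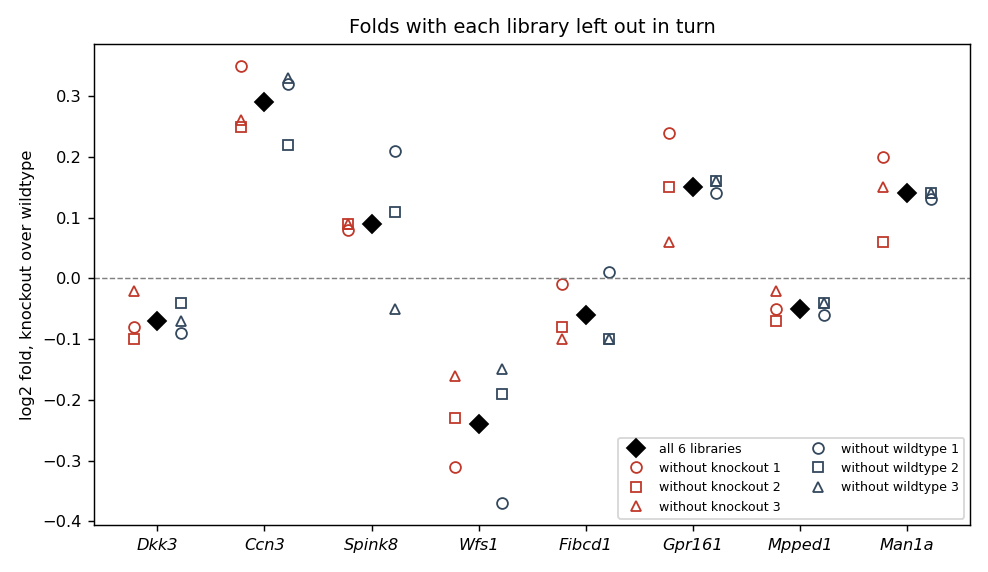
Log2 fold of knockout over wildtype (y axis) for the 8 tested markers with all 6 libraries (black diamonds) and with 1 library left out at a time (open symbols, knockout libraries on the left and wildtype libraries on the right of each diamond). Ccn3 stays between 0.22 and 0.35, while Fibcd1 reaches 0.01 and Spink8 -0.05 when wildtype replicate 1 or 3 is left out.

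Markers with a cluster seed site had folds in both directions. Of the 7 markers with a 7-base site, all of them tested, 3 had positive and 4 negative log2 folds. Ccn3 and Dkk3, both with a miR-92a-3p site as printed above, stood at 0.29 and -0.07. Fibcd1, Gpr161 and Spink8, with a miR-18a-5p site, stood at -0.06, 0.15 and 0.09. Wfs1, with the only miR-17-5p and miR-20a-5p site, stood at -0.24, and Mpped1, with the only miR-19 site, at -0.05. Man1a, with no site, stood at 0.14. None of these passed with edgeR.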

How the data were processed

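Hippocampal RNA of 3 knockout and 3 wildtype mice was sequenced. The authors deposited raw read counts per Ensembl gene, 1 table per mouse. Tools named in the submitters' processing notes are HTSeq, STAR 2.3.0e, DESeq2, SAMtools and FastQC 0.10.1, with build mm9. What each did, which annotation was counted and whether strand was used is not given in the sources used here. The 5 rows that name no gene (38.0% to 40.3% of each file) were left out. GENCODE M21 on GRCm38 gave symbols (32897 of 37620), exon lengths, GC content and 3′ UTRs. It is another build than that of the counts, so positions are given for sequences only.

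Genotypes were compared in edgeR 4.0.16 under R 4.3.3 by quasi-likelihood F-tests without covariates. Genes were filtered by filterByExpr and scaled by TMM, and p-values were adjusted by Benjamini-Hochberg over 16432 genes, with a threshold of 0.05. It was tested on simulated data. GC content was known for 96.2% of these genes. Alternatives were other scalings (DESeq2 size factors, upper quartile), other filters, DESeq2 1.42.0, limma-voom (limma 3.58.1), a robust fit, a GC offset, a replicate block, a threshold of 0.10 and leaving out each library. P-values set the difference between genotypes against the spread between mice, 1 library each.

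Members and lists were chosen with earlier results of these data known. Besides the markers and Mir17hg, the text names the genes with the smallest p of each list (up to 3, or up to 2 for lists outside the subfields) and the 3 closest in level. Pou3f3 and Pou3f4 were added after the values were seen. Lists are described by counts and medians.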

Additional observations from a re-analysis of the deposited data

How the results depend on the processing

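Genes called numbered 0 in the main edgeR test, 62 without a filter beyond 1 read, 163 with DESeq2, 15 with edgeR's robust fit, 18 at an adjusted p of 0.10, and 0 to 17 with 1 library left out (17 without knockout replicate 3, 16 without wildtype replicate 2, 2 without knockout replicate 1 or wildtype replicate 1). CA1 markers called numbered 1 with DESeq2 and 0 in every other setting run. The median log2 fold of the markers was 0.02, between -0.04 and 0.07 with 1 library left out, 0.05 with the GC offset and 0.03 as a mean. The share of markers with a seed site was 100% with a 6-base match (67.6% of genes). Directions turned for some results that did not pass. With 1 library left out, log2 folds ran from -0.10 to 0.01 for Fibcd1, -0.05 to 0.21 for Spink8, -0.49 to 0.04 for Mir17hg, -0.08 to 0.23 for Dcn, and -2.48 to 0.06 for Ttr, which had 39.0 CPM in wildtype replicate 1 alone. With the GC offset they were 0.03 for Fibcd1, 0.00 for Bok, 0.01 for the interneuron gene Slc32a1 and -0.03 for Rab11fip2. The cause was not tested.

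By the labels the animals share no litter, so equal replicate numbers do not pair them. Across genes, libraries of the same number deviated from their group means with correlations of -0.10, -0.02 and -0.15. Adding the replicate block to the model gave 0 genes, 0 markers and a median marker log2 fold of 0.03. Reads alone would give Mir17hg a coefficient of variation of 17.1% in knockout and 15.4% in wildtype, and the tested CA1 markers at most 3.69%.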
